A study of Drosophila melanogaster with 20 samples.

Results

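EbpII, Ebp and Est-6 are 3 genes of the fly's ejaculatory bulb and ejaculatory duct, chosen by name and then looked up among the probe sets whose annotation names a single gene. EbpII (CG2665, probe set 143437_at) and Ebp (CG2668, probe set 152049_at) each had 1 such probe set, so 2 of the 3 genes were followed, out of 10846 genes that have such a probe set among the 14010 of the array. Est-6 (CG6917) matched no such probe set and was not analysed here. A probe set annotated as peb carries the gene ID of another gene, although the same letters serve as an older synonym of Ebp, and it was left out. In the RefSeq annotation EbpII and Ebp are direct neighbours on chromosome arm 2R, with Sfp60F on the far side of EbpII and CG9380 on the far side of Ebp, while Est-6 lies on 3L beside its relative Est-P, with thoc6 listed between them.

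The data come from 20 DrosGenome1 arrays (Affymetrix), each hybridized with the RNA of 30 old males, with 4 arrays in each of 5 groups. Males of the MnSOD line carried 1 DOX-inducible Sod2 transgene insertion, MnSOD(2)22, together with the rtTA(3)E2 transactivator, which is expressed in all tissues. They were fed without doxycycline (MnSOD -DOX, about day 73) or with it (MnSOD +DOX, about day 73 or about day 83). Control males came from Oregon R crossed to rtTA(3)E2 and were also fed without or with DOX; their labels give about day 73 and the series text gives day 78. All flies thus carried rtTA, all food held ampicillin, and 1 transgenic line stood for the transgene. The labels call the replicates biological but name no separate cultures, so p-values and standard errors measure the spread between these samples.

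The ejaculatory bulb and duct lie between the accessory glands and the genital opening of the male, and their secretions are passed to the female with the sperm. The bulb proteins Ebp (also called PEB-me) and EbpII become part of the mating plug that forms in the female tract. Est-6 is a carboxylesterase made in the anterior duct and carried in seminal fluid, and EbpIII, a small secreted protein named for the same bulb, is used below as the third bulb gene. Levels are on the log2 scale of the robust multichip average, in which a difference of 1 is a doubling. They are brightnesses of a probe set, so the level of one gene was not ranked against that of another. In RNA of whole males, fewer cells of a type and less RNA per cell cannot be told apart.

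Sod2, the gene of the transgene, followed the labels of the MnSOD line. Its log2 level lay between 12.22 and 12.61 on the 8 MnSOD +DOX arrays and between 7.38 and 8.47 on the other 12. Among these, MnSOD -DOX arrays read 8.36 to 8.47 (mean 8.42), above every control array, the highest of which read 8.14. The untreated lines thus differed in Sod2 signal under either reading of the control labels. The study saw no leaky expression without DOX by Northern blot, and the source of this difference was not tested. In control flies, which lack the transgene, the mean of Sod2 was 7.94 on the arrays labelled +DOX and 7.56 on those labelled -DOX. These arrays overlapped. The study describes a slight lowering of MnSOD by DOX, which is the other direction. The control groups were less clear. Immune peptide genes were lower with DOX in the MnSOD line at day 73 (log2 difference -2.55 for DptB and -1.48 for Drs), yet were higher on the control arrays labelled +DOX than on those labelled -DOX (4.22 for DptB and 2.18 for Drs). This direction in the control flies is the opposite of the one the study describes for DOX. The study also reports Drs as up-regulated at equal survival, in a comparison that controls for DOX. Mean Drs was 10.41 at day 83 on DOX against 11.53 in MnSOD -DOX. In control flies it was 12.02 with DOX against 9.84 without, by the labels. The DOX-corrected Drs value is therefore negative by the labels and positive with the control groups exchanged. The direction of every control difference below follows the labels and was not settled. An exchange of the control groups turns the sign of every difference between them, and the values of the other control comparisons under it are given where those comparisons are described. Replicates 1 to 3 labelled control +DOX also stood apart in the mean log2 signal of the bacterial spike-in probe sets, at 7.98 to 8.41 against 9.36 to 10.24 on the MnSOD and control -DOX arrays and 9.69 on replicate 4. Their mean log2 signal of the 18S ribosomal RNA probe sets was 8.84, 3.94 and 5.44, against 3.34 to 3.73 on the other arrays. The part of these signals in the control differences was not tested beyond the fits without these arrays and with the spike-in signal as a covariate. The log2 difference between 3′ and 5′ probe sets of the array's quality controls averaged 2.40 in control -DOX, 1.36 in control +DOX, 1.60 in MnSOD -DOX, 1.61 in MnSOD +DOX at day 73 and 1.95 at day 83, so it differed between groups compared below.

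EbpII was bright in every group, with log2 levels of 11.04 to 12.10 over the 20 arrays. In MnSOD -DOX flies it read 11.18, 11.34, 11.35 and 11.28, a mean of 11.29 ± 0.080 (SD, n = 4). In MnSOD +DOX flies at day 73 it read 11.78, 11.85, 11.71 and 11.72, a mean of 11.76 ± 0.063 (SD, n = 4). Every day 73 +DOX array was thus above every -DOX array of the same line. At day 83 on DOX the readings were 11.04, 11.11, 11.25 and 11.56, a mean of 11.24 ± 0.23 (SD, n = 4). Replicates 1 and 2 of day 83 thus lay below every MnSOD -DOX array, replicate 3 within their range and replicate 4 above it, the widest spread of the 5 groups.

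In control flies the log2 level of EbpII was 11.57, 11.69, 11.63 and 11.81 without DOX (mean 11.68 ± 0.10, SD, n = 4). On the arrays labelled control +DOX it was 11.90, 12.10, 11.97 and 11.75 (mean 11.93 ± 0.14, SD, n = 4). The control groups overlapped each other and also overlapped MnSOD +DOX at day 73. From high to low, the order of the means was control +DOX, MnSOD +DOX day 73, control -DOX, MnSOD -DOX and MnSOD +DOX day 83. The only neighbours in that order whose arrays did not overlap were control -DOX and MnSOD -DOX, with a gap of 0.22 between the lowest array of the first and the highest of the second.

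Ebp had log2 levels of 10.37, 10.55, 10.58 and 10.51 in MnSOD -DOX flies (mean 10.50 ± 0.094, SD, n = 4). In MnSOD +DOX flies at day 73 they were 11.01, 10.99, 10.85 and 10.87 (mean 10.93 ± 0.083, SD, n = 4). At day 83 on DOX they were 10.61, 10.66, 10.89 and 10.94 (mean 10.78 ± 0.16, SD, n = 4). Every +DOX array of either day was above every MnSOD -DOX array, so Ebp stayed apart from the untreated flies of its line at day 83, where EbpII lay on both sides of them.

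Control flies had Ebp levels of 10.73, 11.12, 11.02 and 10.90 without DOX (mean 10.94 ± 0.17, SD, n = 4). The arrays labelled control +DOX read 10.94, 11.05, 11.07 and 11.19 (mean 11.06 ± 0.10, SD, n = 4). From high to low, the means of Ebp ran control +DOX, control -DOX, MnSOD +DOX day 73, MnSOD +DOX day 83 and MnSOD -DOX. The first 4 groups overlapped their neighbours in this order, and MnSOD -DOX stood below day 83 by a gap of 0.036 between arrays. MnSOD -DOX was the group farthest from the rest for Ebp, and shared the bottom of the order with day 83 for EbpII.

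**Figure D1:**
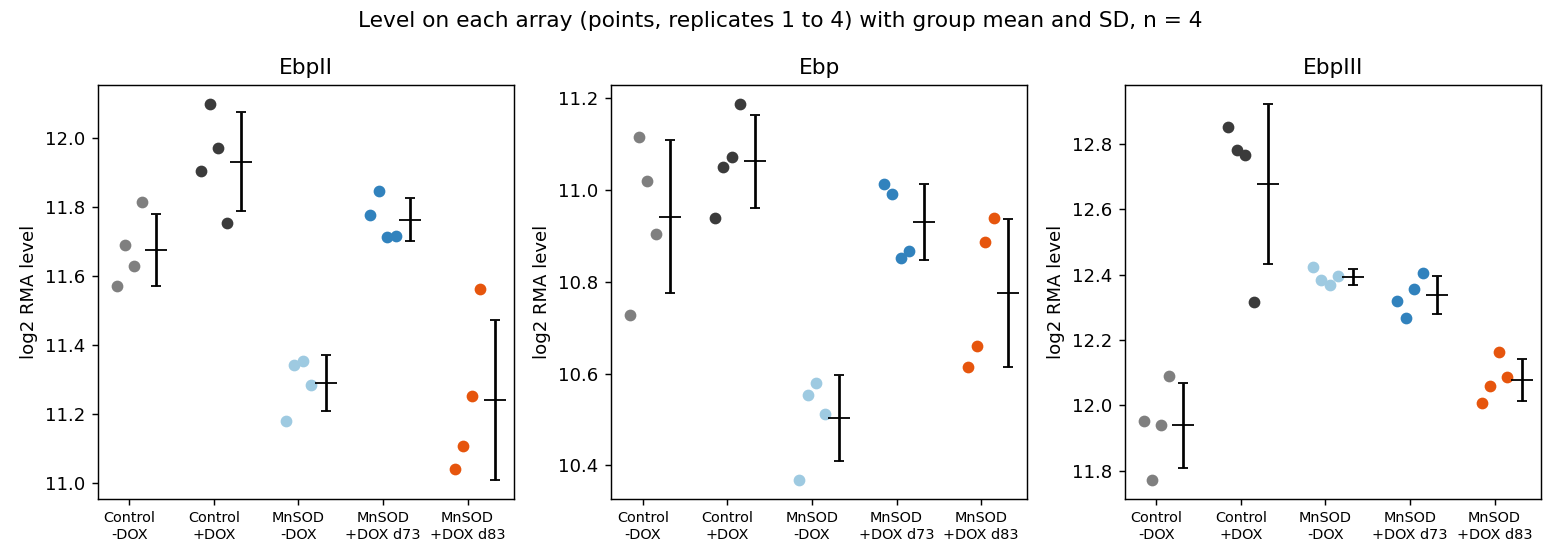
Log2 level (vertical axis, robust multichip average) of EbpII, Ebp and EbpIII on each of the 20 arrays, by group (horizontal axis); points are replicates 1 to 4 from left to right and the bar beside them is the group mean with its SD (n = 4). EbpII and Ebp were both higher in MnSOD +DOX day 73 (means 11.76 and 10.93) than in MnSOD -DOX (11.29 and 10.50), whereas the EbpIII means of these groups were 12.34 and 12.39.

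The group differences of EbpII and Ebp are given with the standard error of a limma fit over all 20 arrays and without p-values, because the genes were listed with earlier results of these arrays known. The other gene lists were also chosen with such results known, so their counts and p-values below describe these arrays and are no independent test. The first difference asked what DOX feeding did in the MnSOD line at equal chronological age. At day 73 EbpII was 0.47 higher with DOX on the log2 scale (SE 0.095), a 1.39-fold difference, and Ebp was 0.43 higher (SE 0.089), a 1.345-fold difference. Neither gene's groups overlapped. Of all probe sets, 12.9% had groups that did not overlap in this comparison, and since the choice of the genes drew on this difference, nothing is read from their number. The median difference of all probe sets was -0.0012.

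At equal survival, day 83 with DOX against day 73 without, the neighbours parted. EbpII differed by -0.05 (SE 0.095) and its groups overlapped, whereas Ebp was 0.27 higher (SE 0.089, 1.21-fold) with no overlap, a separation seen in either direction for 26.9% of all probe sets. Over the 10 days between the +DOX groups EbpII fell by 0.52 on the log2 scale (SE 0.095), a 1.44-fold lower level, and the groups did not overlap, as was so for 21.8% of all probe sets. Ebp differed by -0.16 (SE 0.089) over the same days and its groups overlapped. The EbpII difference between day 83 and MnSOD -DOX changed sign with the arrays kept, from -0.16 without day 83 replicate 4 to 0.02 without day 83 replicate 1.

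Without DOX, both genes were lower in the MnSOD line than in control flies. Sod2 itself was higher in MnSOD -DOX (mean log2 level 8.42) than in control -DOX (7.56), and its part in the result was not tested. EbpII differed by -0.39 (SE 0.095) and Ebp by -0.44 (SE 0.089), on the log2 scale, and in neither case did the groups overlap; 22.0% of all probe sets had groups that did not overlap here. The 3′ to 5′ quality difference also moved between these groups, from 2.40 in control -DOX to 1.60 in MnSOD -DOX, and its part in the result was not tested. With the control groups exchanged the EbpII difference was -0.64 and the Ebp difference -0.56, so both genes were lower in MnSOD -DOX than in control flies under either reading of the control labels.

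Among control flies EbpII was 0.26 higher on the arrays labelled +DOX (SE 0.095) and Ebp 0.12 higher (SE 0.089); both pairs of groups overlapped, while 27.1% of all probe sets had groups that did not. Exchanged, the differences are -0.26 and -0.12. Leaving out control +DOX replicates 1 to 3, the arrays with low spike-in signal, left 1 array in the group, assumed to vary like the others, and gave 0.077 (SE 0.15) for EbpII and 0.25 (SE 0.14) for Ebp. The genes' differences changed order without these 3 arrays, but with standard errors of this size neither order is read.

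With DOX in both lines, EbpII at day 73 was 0.17 lower than in control +DOX (difference -0.17, SE 0.095) and Ebp 0.13 lower (difference -0.13, SE 0.089), with overlapping groups, against 26.5% of all probe sets whose groups did not overlap. At day 83 the differences from control +DOX were -0.69 (SE 0.095) for EbpII and -0.29 (SE 0.089) for Ebp, and neither gene's groups overlapped, as was so for 21.5% of all probe sets. Exchanging the control groups turned the day 73 difference of EbpII to 0.09 and left its day 83 difference at -0.44, and gave -0.01 and -0.17 for Ebp. Without control +DOX replicates 1 to 3 the EbpII differences were 0.00976 at day 73 and -0.51 at day 83, and those of Ebp -0.26 and -0.41. EbpII at day 83 was below the control flies under each of these readings.

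The study's design subtracts the DOX difference of control flies from that of the MnSOD line. The DOX-corrected difference at day 73 was 0.22 for EbpII (SE 0.13) and 0.31 for Ebp (SE 0.13). At day 83 it was -0.30 for EbpII (SE 0.13) and 0.15 for Ebp (SE 0.13). The EbpII value at day 73 was thus 1.6 standard errors in size, and the Ebp value at day 83 was 1.2. With the control groups exchanged the values were 0.73 and 0.55 at day 73, and 0.21 and 0.39 at day 83. Both genes had a positive corrected difference at day 73 under either reading of the control labels, and the sign of EbpII at day 83 depended on it. Without control +DOX replicates 1 to 3 the corrected differences were 0.40 for EbpII and 0.18 for Ebp at day 73, and -0.13 and 0.03 at day 83.

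**Figure D2:**
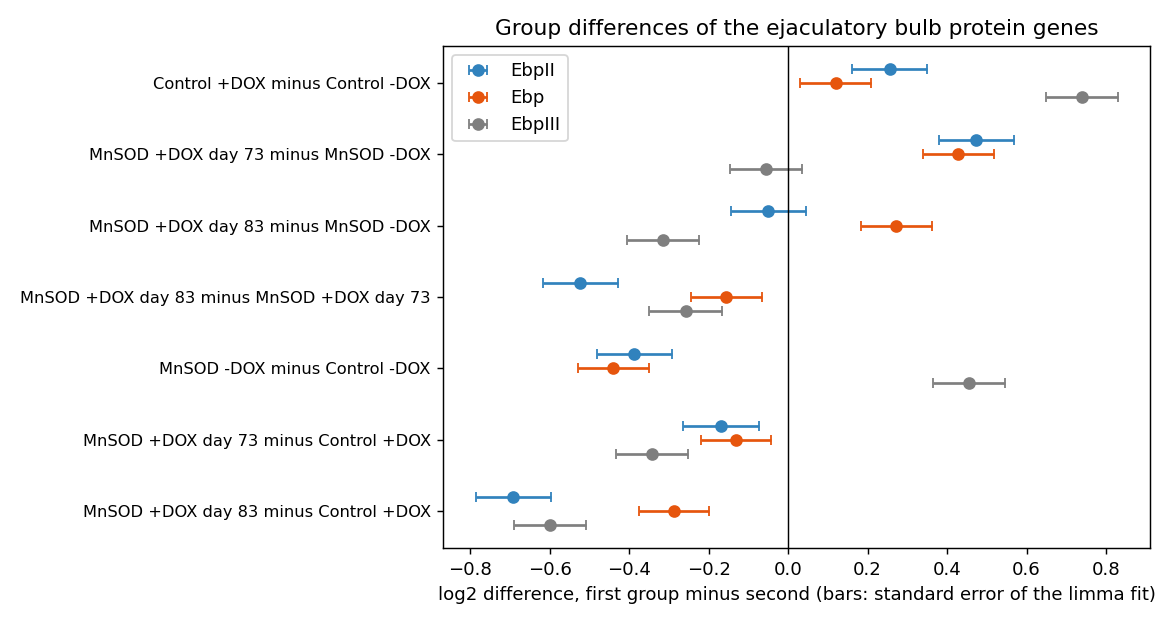
Log2 difference (horizontal axis, first group minus second) of EbpII, Ebp and EbpIII in 7 comparisons of groups (vertical axis), with the standard error of the limma fit as bars (4 arrays a group). EbpII and Ebp lie close together at day 73 against MnSOD -DOX (0.47 and 0.43) and between the untreated lines (-0.39 and -0.44), where EbpIII lies elsewhere (-0.06 and 0.46).

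The neighbours EbpII and Ebp can also be compared on the same array, where anything that scales both probe sets alike drops out. EbpII minus Ebp was 0.81, 0.79, 0.77 and 0.77 on the MnSOD -DOX arrays, and 0.76, 0.86, 0.86 and 0.85 on the MnSOD +DOX arrays of day 73. At day 83 it was 0.42, 0.45, 0.37 and 0.62, below every other array of the line. The mean fell from 0.83 ± 0.046 at day 73 to 0.46 ± 0.11 at day 83 (SD, n = 4 each). In control flies it was 0.73 ± 0.17 without DOX and 0.87 ± 0.21 with it (SD, n = 4 each), over wider ranges (0.57 to 0.91 and 0.57 to 1.05) that reached into both. The size of such a difference reflects the probes as well as the RNA, and only its shift between groups is read.

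**Figure D3:**
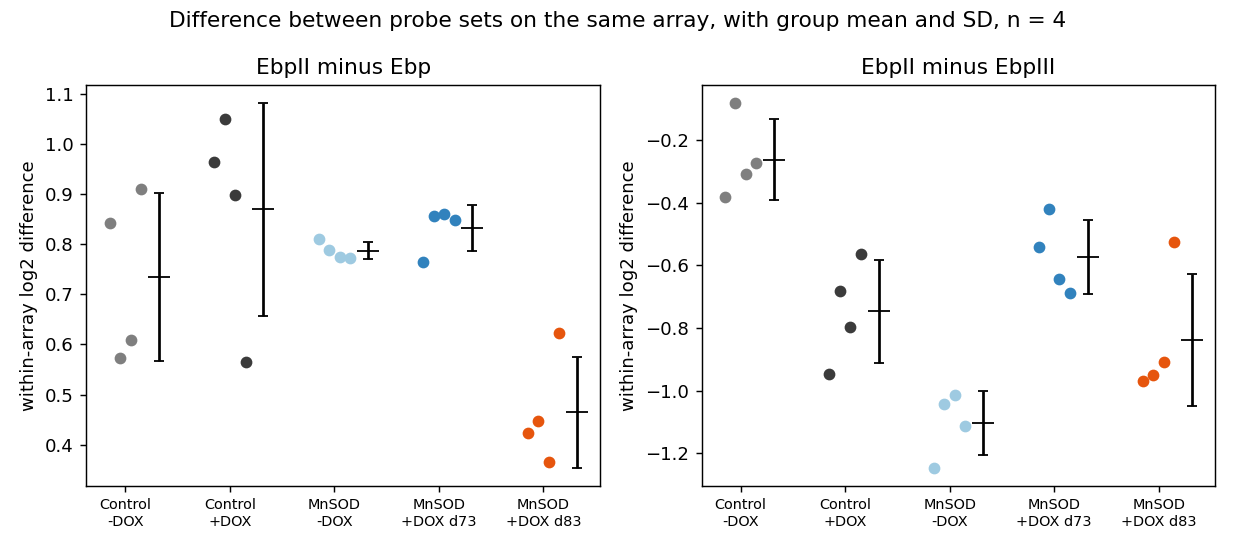
Within-array log2 difference (vertical axis) of EbpII minus Ebp, left, and EbpII minus EbpIII, right, on each of the 20 arrays by group (horizontal axis); points are replicates 1 to 4 and the bar is the group mean with its SD (n = 4). The 4 arrays of MnSOD +DOX day 83 have EbpII minus Ebp between 0.37 and 0.62, below the 0.76 to 0.86 of the other MnSOD arrays.

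Over the 20 arrays the levels of EbpII and Ebp had a Pearson r of 0.79 and a Spearman rho of 0.73, given as a description, since arrays of 1 group share their flies' line, age and food. Without the 2 arrays farthest from the median of EbpII, day 83 replicates 1 and 2, r was 0.78. Within the groups, as deviations from the group means, r was 0.50.

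EbpIII (CG11390, probe set 143678_at), which lies elsewhere on 2R, had another pattern. It too was listed with earlier results of these arrays known, so its p-values are given as a description. Its log2 level was 12.42, 12.38, 12.37 and 12.40 in MnSOD -DOX flies and 12.32, 12.27, 12.36 and 12.41 in MnSOD +DOX flies at day 73, so these groups overlapped. It differed by -0.06 at day 73 (limma adjusted p 0.956) and by -0.31 at day 83 (adjusted p 0.0172), which did not pass the threshold of an adjusted p under 0.01 with at least a 1.2-fold difference; it did pass in other fits, among them the one without control +DOX replicate 4 (adjusted p 0.0018) and the one with only the compared groups (adjusted p 0.0058). The share of all probe sets past that threshold was 0.664% at day 73 and 9.27% at day 83. On the same arrays, EbpII minus EbpIII moved from -1.10 ± 0.10 in MnSOD -DOX to -0.57 ± 0.12 at day 73 (SD, n = 4 each), with no overlap. The highest EbpIII group means were 12.68 in control +DOX and 12.39 in MnSOD -DOX, with 12.34 at day 73 on DOX close behind. Control +DOX and MnSOD -DOX were also the highest groups of DptB (12.83 and 12.35) and Drs (12.02 and 11.53). A link between EbpIII and these immune genes was not tested.

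EbpIII also had the opposite sign to the other bulb genes between the untreated lines: it was 0.46 higher in MnSOD -DOX than in control -DOX (SE 0.091, adjusted p 0.0016, against 6.55% of probe sets past the threshold), where EbpII and Ebp were lower. With the control groups exchanged that difference was -0.29 (adjusted p 0.019), so its sign follows the control labels. On the arrays labelled control +DOX, EbpIII read 12.85, 12.78, 12.77 and 12.32, against 11.95, 11.77, 11.94 and 12.09 without DOX. The groups did not overlap, and replicate 4, the array with an ordinary spike-in signal, was the lowest of the +DOX arrays. The difference of 0.74 (SE 0.091) passed the threshold (adjusted p 5.29e-06), as did 26.2% of all probe sets. With replicates 1 to 3 left out, which leaves 1 array in the group, it was 0.38. With the control groups exchanged it was -0.74.

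Against control +DOX, EbpIII was lower at day 73 (difference -0.34, adjusted p 0.0088, 12.1% of probe sets past the threshold) and at day 83 (difference -0.60, adjusted p 5.13e-05, 16.7% past it). Without control +DOX replicates 1 to 3 these differences were 0.02 and -0.24. That fit leaves 1 array in the group, so no call is read from it. The day 73 call was lost in 15 of the 20 fits that left out 1 array. With the control groups exchanged the differences were 0.40 (adjusted p 0.0061) and 0.14 (adjusted p 0.33), so both signs follow the control labels. The DOX-corrected difference of EbpIII was -0.80 at day 73 (adjusted p 0.0002, 3.78% of probe sets past the threshold in that direction and 841 of 14010 in either) and -1.06 at day 83 (adjusted p 3.53e-06, 17.6% past it in either), and with the control groups exchanged it was 0.68 and 0.43. Without control +DOX replicates 1 to 3 the day 73 value was -0.43, with 1 array left in that group.

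Of the other genes of the bulb and duct, 5 besides EbpIII had a probe set: Anp, Gld, bond, Obp56g and Est-P; Dup99B matched none and was not analysed here. In the MnSOD line at day 73, 0 of these 6 genes passed the threshold in limma, where 0.664% of all probe sets did. Of the 6, 2 had an unadjusted p under 0.05, and 1 passed with array weights in the fit. With so few genes a count of 0 is near that share, and nothing is read from it. The median of their differences was -0.08, where EbpII and Ebp had 0.47 and 0.43. At day 83 against MnSOD -DOX, again 0 of 6 passed in limma, where 9.27% of all probe sets did, and the median was 0.02. Here 2 had an unadjusted p under 0.05, and up to 2 were past the threshold with other settings.

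Obp56g, an odorant binding protein gene whose product is found in the mating plug, was the nearest of these genes to EbpII and Ebp in direction. Its log2 level had a mean of 10.82 ± 0.056 in MnSOD -DOX, 11.07 ± 0.083 at day 73 and 11.09 ± 0.20 at day 83 (SD, n = 4 each), and all +DOX arrays of either day lay above the -DOX arrays. The differences of 0.25 (adjusted p 0.34) and 0.27 (adjusted p 0.060) did not pass the threshold. Between the untreated lines it differed by -0.26 (adjusted p 0.097), the sign of EbpII and Ebp, and by -0.67 (adjusted p 9.3e-05) with the control groups exchanged.

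Anp, the andropin gene, encodes an antibacterial peptide of the ejaculatory duct. Its log2 level at day 73 on DOX was 12.21, 12.12, 12.30 and 12.21, and at day 83 it was 12.57, 12.53, 12.59 and 12.59, with no overlap. It rose over these 10 days by 0.36 (SE 0.076, adjusted p 0.0051, 3.69% of probe sets past the threshold), while EbpII fell by 0.52 on the log2 scale. The call of Anp was lost without day 73 replicate 1, 2 or 4 or day 83 replicate 1, 2 or 3, and with only the compared groups in the fit. It was lower on the arrays labelled control +DOX by 0.38 (difference -0.38, adjusted p 0.00062), a sign that turns with the control labels. Anp and EbpII thus ran opposite ways in both of these comparisons.

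Gld, the gene of glucose dehydrogenase, and bond, which encodes a fatty acid elongase, were expressed at middling brightness, with group means of log2 7.10 to 7.68 and 7.48 to 7.90. On the arrays labelled control +DOX, Gld was 0.58 higher (adjusted p 0.0019) and Obp56g 0.41 higher (adjusted p 0.0031), and bond was 0.33 higher (adjusted p 0.011) without passing. Replicate 1 of control -DOX was low for Gld, and without it the Gld difference was 0.36 (adjusted p 0.0018). The call of Obp56g was lost without control -DOX replicate 3 or control +DOX replicate 1, 2 or 3. Of the 6 genes, 3 were higher and 1 lower in this comparison, where 26.2% of all probe sets passed, with a median of 0.37 against -0.05 for all probe sets. Each of these signs turns with the control labels. The number past the threshold was 0 with the spike-in signal as a covariate. Leaving out control +DOX replicates 1 to 3 leaves 1 array in the group, so no count is read from that fit. Est-P, the tandem relative of Est-6, lay near the floor of the array in every group (means of log2 3.22 to 3.51) and passed in none of the comparisons.

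Levels of genes of the other male reproductive organs moved in these flies as well. The accessory gland list held 24 measured genes of seminal fluid proteins. It was chosen with earlier results of these arrays known, so its counts and p-values are a description and no independent test. The study had already named Acp62F and Acp36DE, both of this list, as lower at equal survival, in a comparison that controlled for DOX. By the DOX-corrected difference at day 83, 9 of 24 were lower and 0 higher, with a median of -0.40. There 17.6% of all probe sets passed in either direction. With the control groups exchanged that median was -0.38. The other differences in this paragraph are not corrected for DOX. At day 73, 0 of the 24 passed in limma, where 0.664% of all probe sets did. Of the 24, 5 had an unadjusted p under 0.05, and 2 were past the threshold with only the compared groups in the fit. An estimate below 0 was found for 21, with a median of -0.15, opposite to EbpII and Ebp. At day 83 against MnSOD -DOX, 12 of 24 were lower and 0 higher, with a median of -0.40 and all 24 estimates below 0, where 9.27% of all probe sets passed in either direction. Among them were Sems, a serine protease gene (difference -0.89, adjusted p 1.09e-06), and Acp26Aa, the gene of ovulin, a peptide that raises egg laying (difference -0.79, adjusted p 9.19e-05). The count was 7 without MnSOD -DOX replicate 1 or 4 or without day 83 replicate 2, and 7 with each array centred on its median. Ebp, which was 0.27 higher in the same comparison, and the accessory gland genes had opposite signs. Between the +DOX days they ran the same way as EbpII and Ebp (-0.52 and -0.16): 5 of 24 were lower and 0 higher at day 83, against 3.69% of all probe sets past the threshold, with 21 estimates below 0 and a median of -0.29. That count was 2 with only the compared groups in the fit, 2 with each array centred on its median, and 2 to 9 without 1 array.

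Genes of the testis had the sign of EbpII and Ebp at day 73 in the MnSOD line. This list was likewise chosen with earlier results known, and its counts and p-values are a description. All 19 measured testis genes had an estimate above 0, with a median of 0.24. Of these 0 passed in limma, where 0.664% of all probe sets did (13 at an unadjusted p under 0.05). At day 83 against MnSOD -DOX, 10 of 19 were higher and 0 lower, where 9.27% of all probe sets passed, with a median of 0.37, among them Mst84Dc, a sperm tail protein gene (difference 0.85, adjusted p 1.78e-05). Between the +DOX days 14 of 19 estimates were above 0 (median 0.06), the opposite sign to EbpII and Ebp. In that comparison 1 testis gene was past the threshold, as were 3.69% of all probe sets. Between the untreated lines, where 6.55% of all probe sets passed, 8 of 19 were lower in MnSOD -DOX and 0 higher, with a median of -0.48, and Mst84Dc was the one with the largest difference (-1.20, adjusted p 7.71e-08). In that comparison 7 accessory gland genes were higher and 0 lower, with a median of 0.19. With the control groups exchanged, 3 of 19 testis estimates were above 0 (median -0.44, Mst84Dc -0.58). Of the accessory gland estimates, 16 of 24 were above 0 (median 0.24).

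Summed over the list on the linear scale, the log2 level of the testis genes was 13.26 to 13.51 on MnSOD -DOX arrays, 13.56 to 13.74 at day 73 on DOX, 13.79 to 13.94 at day 83 and 13.92 to 14.16 in control -DOX. That of the accessory gland genes was 13.85 to 13.94, 13.64 to 13.85, 13.26 to 13.70 and 13.78 to 13.96 in the same groups. On the arrays labelled control +DOX the sums were 13.59 to 13.89 for testis and 13.70 to 13.76 for accessory gland. The summed level of the 6 other bulb and duct genes stayed within 13.51 to 13.95 in all 5 groups. EbpIII and Anp had the largest readings and so the most weight in this sum. Their differences had opposite signs between the control groups (0.74 and -0.38) and between the +DOX days (-0.26 and 0.36). A narrow range of the sum thus does not mean that each gene was steady. Whether these organs' share of the RNA had a part in the differences of EbpII and Ebp was not tested.

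**Figure D4:**
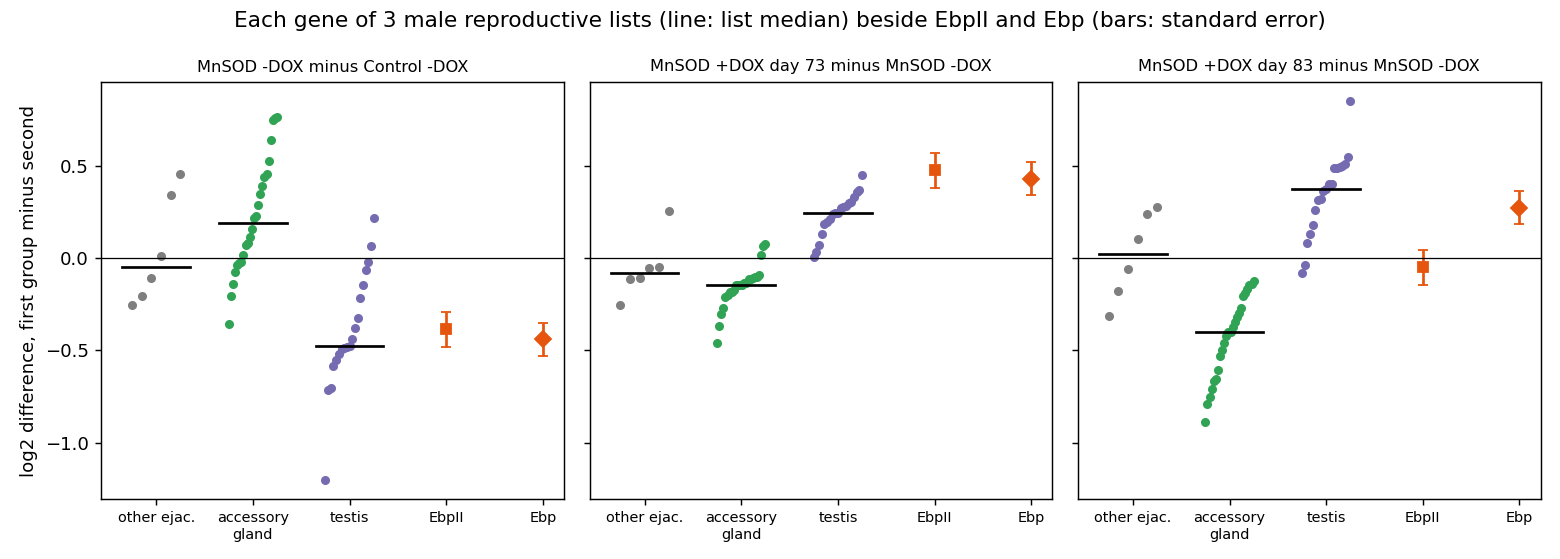
Log2 difference (vertical axis, first group minus second) of each gene of the other ejaculatory (6 genes), accessory gland (24) and testis (19) lists, with the list median as a line, beside EbpII and Ebp with the standard error of the fit, in 3 comparisons. At day 73 the accessory gland median is -0.15 and the testis median 0.24, with EbpII at 0.47 and Ebp at 0.43.

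The genes whose levels over the 20 arrays were most like a bulb gene were sought among 10844 other genes, by Pearson r as a description with no test. For EbpII they were CG13833 (r 0.85), CDase, a ceramidase gene (0.85), GstE7, a glutathione S-transferase gene (0.84), CG4666 (0.84) and CG5532 (0.83), and Ebp came 24th. For Ebp they were the cytochrome P450 genes Cyp6d5 (0.84) and Cyp12a5 (0.81), then EbpII itself (0.79), CG3740 (0.78) and pdgy (0.77). EbpIII came 2039th for EbpII (r 0.43) and 5364th for Ebp (r 0.028). The ranks depended on the measure. By Spearman rho EbpII came 40th for Ebp, and by deviations from the group means 1170th. Ebp came 100th and 1056th for EbpII by these measures. Cyp6d5 came 17th and 567th for Ebp, and CG13833 1st and 71st for EbpII. The order by r thus did not carry over to the spread within groups. Cyp6d5, like Ebp, was lowest in MnSOD -DOX, with a mean log2 level of 9.97 ± 0.12 against 10.41 to 10.45 in the other groups (n = 4 each), while CG13833, like EbpII, was lowest at day 83 (6.26 ± 0.35).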

How the data were processed

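The authors computed the deposited log2 values by RMA in the affy package (versions not given in the sources used here) for 14010 probe sets on 20 arrays. Of these, 12444 name 1 gene in the platform annotation, 327 several and 1239 none. Genes were matched by symbol, or by synonym and gene ID in RefSeq; where several matched a gene, the brightest on average was used. The members and all gene lists were chosen with earlier results of these data known. Levels were described per array. limma 3.58.1 in R 4.3.3 fitted 5 group means to all arrays (lmFit, eBayes, Benjamini-Hochberg over all probe sets within a comparison); a gene passed at an adjusted p under 0.01 and at least 1.2-fold. The script was tested on simulated data. Named genes were the members, every other bulb and duct gene, up to 4 genes that passed by size of difference in each further list (accessory gland, testis, esterase, yolk and eggshell, male dosage), the 5 genes most like each member, Sod2 and immune genes as label checks. Tables and figures used Python 3.11.15. RefSeq start positions gave the order of neighbouring genes, and no sequences were used. Alternatives changed the arrays in the fit, normalization, filter, variance model, weights, control labels, spike-in covariate, replicate block and threshold.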

Additional observations from a re-analysis of the deposited data

Results flagged for a closer look

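In 40 groups of 4 arrays tested for the bulb and duct genes, 4 held an array whose gap to its nearest neighbour was past Dixon's limit as a share of the group's range; chance sets apart about 1 in 20 groups. None of these groups was of EbpII or Ebp. Replicate 4 of control +DOX was the low array for EbpIII (gap 0.843 of the range) and for Obp56g (0.907). Replicate 1 of control -DOX was the low array for Gld (0.883) and the high one for Est-P (0.848).

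The DOX difference of the MnSOD line differed from that of control flies, by limma's test of the difference, for EbpIII at day 73 (-0.80, adjusted p 0.0002) and at day 83 (-1.06, adjusted p 3.53e-06). At day 83 the same test gave 0.48 for Anp (adjusted p 0.0019) and -0.76 for Gld (adjusted p 0.0044). Each of these values takes the direction of the control difference from the labels, which was not settled, and with the control groups exchanged the values were 0.68 and 0.43 for EbpIII, -0.28 for Anp (adjusted p 0.048) and 0.40 for Gld (adjusted p 0.10). The call of Gld was also lost without MnSOD -DOX replicate 1 or control +DOX replicate 2 or 3.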

How the results depend on the processing

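Of 540 values of EbpII and Ebp under 30 other settings, 518 stayed within 1 SD of the value reported, 20 moved further, and 2 that exceeded 2 standard errors changed sign; smaller differences that changed sign are counted by how far they moved. In the 20 fits without 1 array none moved further than 1 SD. The causes of the shifts were not tested beyond what the settings themselves change. With the control groups exchanged, EbpII gave -0.26 between the control groups, -0.64 for MnSOD -DOX against control -DOX, 0.087 and -0.44 for day 73 and day 83 against control +DOX, and 0.73 and 0.21 as DOX-corrected differences; Ebp gave -0.12, 0.55 and 0.39 for the control and corrected differences; EbpIII gave -0.74, -0.29, 0.40, 0.14, 0.68 and 0.43 for the same 6 comparisons. With the spike-in signal as a covariate EbpII gave 0.042 between control groups, 0.018 and -0.51 against control +DOX, and 0.40 and -0.13 corrected. Without control +DOX replicates 1 to 3 it gave 0.077, 0.00976, -0.51, 0.40 and -0.13, and EbpIII at day 73 against control +DOX gave 0.021. Quantile normalization gave Ebp -0.0154 between control groups, and 0.013 and -0.15 against control +DOX.

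Counts of bulb and duct genes past the threshold moved as follows. Between control groups it was 1 with only the compared groups in the fit, 0 with the spike-in covariate, and 3 to 5 without 1 array. At day 73 it was 1 with array weights. At day 83 against MnSOD -DOX it was 1 with the compared groups only, 1 with quantile normalization, 2 with weights, 1 with the covariate, 1 without replicates 1 to 3, 1 at an adjusted p under 0.05, and 0 to 1 without 1 array. Between the +DOX days it was 0 with the compared groups only, 2 with the covariate, and 0 to 1 without 1 array. Accessory gland counts between control groups were 3 with the compared groups only, 0 with the covariate, and 4 to 9 without 1 array. At day 73 they were 2 with the compared groups only and 2 with weights. At day 83 they were 7 with median centring and 7 to 15 without 1 array. Between the +DOX days they were 2 with the compared groups only and 2 with centring. In that comparison they were 8 at an adjusted p under 0.05, and 2 to 9 without 1 array.

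The replicate numbers did not pair the arrays: 40 same-numbered pairs across groups had a mean correlation of deviations of -0.0075 (-0.39 to 0.36), against 0.0058 for 120 other pairs. With the replicate number as a block the day 73 differences of EbpII and Ebp were 0.47 and 0.43, and the counts of bulb and duct genes were 4, 0, 0 and 1, as without it; the call of EbpIII at day 73 against control +DOX was lost (adjusted p 0.013). With 4 arrays a group, small differences stay within the error, and Est-P near the floor has little range to move in.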

Other observations

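The carboxylesterase family to which Est-6 belongs had 14 other measured genes. At day 73 in the MnSOD line 0 of them passed in limma, where 0.664% of all probe sets did (1 at an unadjusted p under 0.05, median 0.0073). At day 83 1 passed, where 9.27% of all probe sets did: Ace, the acetylcholinesterase gene, was 0.32 higher (adjusted p 0.0082). The call of Ace was lost without any 1 of the MnSOD -DOX arrays, day 73 replicate 1 or 4, or day 83 replicate 2, 3 or 4. Between the untreated lines alpha-Est2 was 0.82 lower in the MnSOD line (difference -0.82, adjusted p 6.58e-08), the 1 gene of the 14 that passed, near the 6.55% of all probe sets; with the control groups exchanged its difference was -0.56 (adjusted p 1.81e-05).

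Yolk and eggshell genes, which mark the female, had 0 of 13 genes past the threshold in limma at day 73, where 0.664% of all probe sets passed. There 0 had an unadjusted p under 0.05, and the median was -0.03. At day 83, where 9.27% of all probe sets passed, 2 of 13 were lower, Vm32E (-0.35, adjusted p 0.0075) and Cp36 (-0.31, adjusted p 0.0092). Both calls were lost without any 1 of the MnSOD -DOX arrays or day 83 replicate 1, 2 or 4, and that of Cp36 also without day 83 replicate 3, any 1 of the day 73 +DOX arrays, control -DOX replicate 4 or control +DOX replicate 2 or 3. Between control groups 5 of 13 were lower on the arrays labelled +DOX, where 26.2% of all probe sets passed, dec-1 by the most (-0.52, adjusted p 0.0003), a direction that turns with the control labels. Of the male dosage compensation list msl-2 alone was measured. It passed in 1 comparison, day 83 against control +DOX (0.39 higher, adjusted p 0.0021), where 16.7% of all probe sets passed. That call was lost without control +DOX replicate 1 (adjusted p 0.012) and with the control groups exchanged (0.14, adjusted p 0.31).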
